A study of Mus musculus with 12 samples.

Results

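The mitochondrial genome encodes mRNAs that are made inside the organelle and never receive the m7G cap, the methylated guanosine that RNMT completes on transcripts of RNA polymerase II. Here 10 of them, mt-Nd1, mt-Nd2, mt-Nd3, mt-Nd4, mt-Nd5, mt-Cytb, mt-Co1, mt-Co2, mt-Co3 and mt-Atp6, are described in total RNA and ribosome protected fragments (RPFs) of CD4 T cells that lack Rnmt. They were chosen by symbol and matched to the Ensembl identifiers of the count files, as 10 of the 13 mitochondrially encoded mRNAs and of 49585 genes counted. The control group was Rnmt fl/fl CD4cre - and the other was Rnmt fl/fl CD4cre + (Rnmt cKO), so both carried the floxed alleles and the Cre transgene, driven by the Cd4 promoter, was the difference. All mice were female. Their age was not given in the sources used here. Naive CD4 T cells of lymph nodes, isolated with a magnetic kit, were activated for 20 h on plates coated with antibody to CD3 (5 ug/ml) and to CD28 (1 ug/ml), and cycloheximide (0.1 mg/ml) was added 1 min before lysis. Cytoplasmic RNA and RPFs were sequenced from 3 cultures of each genotype, giving 12 libraries. The labels number the cultures but do not name the animals, so the p-values measure the spread between these samples. Total RNA libraries held 15079703 to 22629563 reads on genes and RPF libraries 4123271 to 10661356, and the shallowest was RPF of Rnmt cKO replicate 3.

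Mitochondrial DNA is transcribed from both strands by the polymerase Polrmt into long RNAs, which are cut mostly at the tRNAs that lie between the coding genes. The released mRNAs are translated by mitochondrial ribosomes into subunits of complexes I, III, IV and V, whose other subunits are encoded in the nucleus and translated from capped mRNAs. Cycloheximide stalls cytosolic ribosomes and does not act on mitochondrial ribosomes. CD4cre deletes floxed alleles during T cell development in the thymus, so the deletion precedes the activation.

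The annotated mRNAs begin at a start codon and have almost no leader. The first 30 bases of 5 of them are given 5′ to 3′ from the GENCODE transcripts (build GRCm38, all on the + strand of chromosome M), with the start codon in capitals, because they show this leaderless form and the unusual start codons of mitochondria. The genes lie at chrM:2751-3707 (mt-Nd1), chrM:3914-4951 (mt-Nd2), chrM:9459-9806 (mt-Nd3), chrM:5328-6872 (mt-Co1) and chrM:14145-15288 (mt-Cytb).
mt-Nd1: GTGttctttattaatatcctaacactcctc
mt-Nd2: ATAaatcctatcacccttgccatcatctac
mt-Nd3: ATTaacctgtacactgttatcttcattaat
mt-Co1: ATGttcattaatcgttgattattctcaacc
mt-Cytb: ATGacaaacatacgaaaaacacacccatta

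Each of these 5 genes is a single exon with the start codon at base 1, and the gap to the tRNA gene before it, on either strand, was 0 bases for mt-Nd1, mt-Nd2 and mt-Nd3, 1 base for mt-Co1 and 5 bases for mt-Cytb. The gene of mt-Atp6 overlaps that of mt-Atp8 by 43 bases, mt-Co3 overlaps mt-Atp6 by 1 base, and mt-Nd4 overlaps mt-Nd4l by 7 bases. The annotated mt-Co3, mt-Nd4 and mt-Cytb end 1 base past the last whole codon.

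Rnmt itself was measured first, as the check of the labels. Its level in total RNA was 93.9 to 95.3 CPM (reads relative to the TMM-scaled size of the library) in control and 29.3 to 32.3 CPM in Rnmt cKO libraries. In RPF it was 87.7 to 104 CPM in control and 9.57 to 10.5 CPM in Rnmt cKO, so the groups were far apart in both. The log2 fold change was -1.62 in total RNA (SE 0.06, adjusted p = 5.84e-06) and -3.24 in RPF (SE 0.10, adjusted p = 4.81e-06).

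Only 7 of the 10 mRNAs could be followed. The mRNAs of the cytochrome c oxidase subunit mt-Co3 and of the ATP synthase subunit mt-Atp6 had 0 reads in all 12 libraries, and mt-Co2 had 4 reads in all, 3 in total RNA of Rnmt cKO replicate 2 and 1 in replicate 3. A count of 0 allows uniquely aligned reads of up to 0.129 to 0.203 CPM in a total RNA library and 0.281 to 0.736 CPM in an RPF library, for counting error only. The counts are of reads aligned in a single place, and most of the sequence of these 3 mRNAs is also found in pseudogenes, copies of mitochondrial DNA inserted in chromosomes. Windows of 50 bases were compared with all other GENCODE transcripts outside the mitochondrial genome. All 635 windows of mt-Co2 occurred elsewhere (100%), as did 99.9% of those of mt-Co3 and 99.5% of mt-Atp6.

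The best matching copies are annotated in a row on the minus strand of chromosome 1. They are Gm28661 for mt-Co2 (chr1:24614885-24615565), Gm28437 for mt-Co3 (chr1:24613189-24613971), Gm10925 for mt-Atp6 (chr1:24613974-24614651), Gm28438 for mt-Nd3 (chr1:24612775-24613119) and Gm28439 for mt-Nd4 (chr1:24611535-24612410). The copies themselves had between 0 and 21 reads over all libraries. For these mRNAs the counts therefore give the uniquely aligned reads and set no limit on the level. The small mRNA mt-Atp8 was also at 0 in every library, although none of its 50-base windows was found in another transcript. On chromosome 1 the copies of mt-Atp6 and mt-Co2 leave 233 bases between them with no annotated copy, and the genome sequence there was not read.

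Among the mRNAs that were counted, the shared part was 0% for mt-Nd1, the subunit of complex I encoded first after the rRNAs, and for mt-Cytb, the apocytochrome of complex III. It was 8.2% for mt-Nd2, 7.6% for mt-Nd5, 51.1% for mt-Co1, the catalytic core of complex IV, and 62.2% for mt-Nd4. It was 98.0% for mt-Nd3, a small complex I subunit, which left 6 of 299 windows found in no other annotated transcript, the first at base 1 and the last at base 299. With windows of 30 bases, nearer the length of an RPF, the shared part was 64.8% for mt-Co1, 17.5% for mt-Nd5, 14.1% for mt-Nd2 and 7.4% for mt-Cytb. The counts do not place reads within a gene, and the genome beside the copies was not read.

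**Figure D1:**
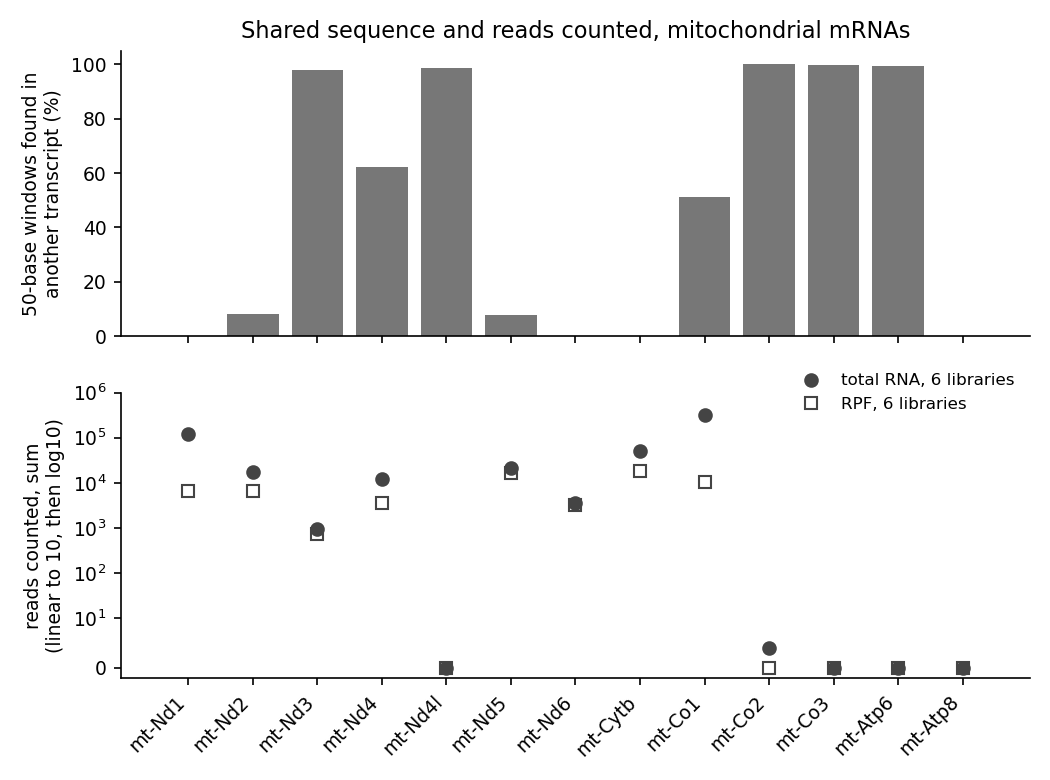
Upper panel, the percent of 50-base windows of each of the 13 mitochondrially encoded mRNAs that also occur in a transcript outside the mitochondrial genome. Lower panel, reads summed over the 6 total RNA and the 6 RPF libraries, on an axis that is linear up to 10 and log10 above. mt-Co2, mt-Co3 and mt-Atp6, with 99.5 to 100% of windows shared, sit at 0 to 4 reads, and mt-Atp8 sits at 0 with none shared.

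In control total RNA the levels per kilobase of gene spanned a wide range. The level was 1877 ± 106 CPM per kb for mt-Co1 (SD, n = 3), 1116 ± 123 for mt-Nd1 and 370 ± 33.4 for mt-Cytb. It was 141 ± 13.3 CPM per kb for mt-Nd2, 88.9 ± 10.1 for mt-Nd5, 69.0 ± 9.45 for mt-Nd4 and 32.4 ± 12.2 for mt-Nd3. No neighbours in this order overlapped between their control libraries. The value of mt-Nd3 counts unique reads against the whole gene, so its place in this order and in that of RPF is not set by these data, and with 6 unique windows it was given no value per unique window. Per kilobase of unique 50-base windows, an alternative chosen after the data were seen, mt-Co1 was at 3967 ± 223 CPM per kb, mt-Nd1 at 1176 ± 130, mt-Cytb at 387 ± 34.9, mt-Nd4 at 190 ± 26.0, mt-Nd2 at 161 ± 15.2 and mt-Nd5 at 98.9 ± 11.3. mt-Nd4 then moved above mt-Nd2 and mt-Nd5, although its control libraries overlapped those of mt-Nd2. The order of the leading 3 stayed.

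In control RPF the order differed. The level was 310 ± 32.6 CPM per kb for mt-Cytb (SD, n = 3), 175 ± 10.7 for mt-Nd5, 153 ± 29.5 for mt-Co1, 145 ± 10.1 for mt-Nd1 and 129 ± 11.3 for mt-Nd2. It was 54.4 ± 3.22 CPM per kb for mt-Nd4 and 32.6 ± 21.4 for mt-Nd3. Per kilobase of gene, mt-Cytb stood above all others and the next 4 overlapped with their neighbours, as did mt-Nd4 and mt-Nd3. Per kilobase of unique 50-base windows, mt-Co1 was at 323 ± 62.3 CPM per kb and mt-Cytb at 324 ± 34.0, followed by mt-Nd5 at 195 ± 11.96, mt-Nd1 at 153 ± 10.7, mt-Nd4 at 149 ± 8.86 and mt-Nd2 at 148 ± 12.9. Per kilobase of unique 30-base windows, also chosen after the data were seen, mt-Co1 was at 443 ± 85.4 CPM per kb and mt-Cytb at 343 ± 36.0. The order of their means thus rests on the window length, and their libraries overlapped with either length.

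The 10 mRNAs together took a small share of uniquely aligned protein-coding reads, with overlapping values in the genotypes. mt-Co2, mt-Co3 and mt-Atp6 added almost nothing to it, and only part of the sequence of mt-Nd3, mt-Nd4 and mt-Co1 is unique. In total RNA the share was 0.699, 0.608 and 0.690% in the control libraries and 0.723, 0.685 and 0.630% in those of Rnmt cKO. The means were 0.666 ± 0.050% and 0.679 ± 0.047% (SD, n = 3), and the groups overlapped. In RPF the share was 0.139, 0.145 and 0.127% in control and 0.131, 0.128 and 0.218% in Rnmt cKO. The highest of these was the shallowest library, and the other Rnmt cKO values lay within the control range. A sum over the mRNAs was not tested. Within it, mt-Co1 held 59.4 to 61.7% of the reads in control total RNA and 57.3 to 59.1% in Rnmt cKO, and mt-Cytb 8.62 to 8.92% and 9.15 to 10.7%. Neither pair of groups overlapped. Of the 7 mRNAs 3 separated in this way, the other being mt-Nd3, and the smallest p of an exact permutation test of 3 against 3 is 0.1. How many of all genes separate by this measure was not counted. By level in total RNA 62.3% of all genes did, so the 3 are a description only. All these values are shares within a library and give neither a number of cells nor an amount per cell. Less mRNA per cell and a lower content of capped mRNA cannot be told apart from them. The paper reports less mRNA per cell in activated Rnmt cKO cells than in control cells. An equal share therefore need not be an equal amount per cell.

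In total RNA most of these mRNAs did not pass the test between genotypes. mt-Nd3 fell and 6 of the 7 mRNAs tested did not pass. The background was high, since 54.2% of 11519 genes tested changed in either direction, 28.0% down and 26.3% up. The median log2 fold change was 0.19 over the 7 mRNAs and 0.00 over all genes, and the groups did not overlap for 1 of 7, against 62.3% of all genes.

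mt-Co1 was at 3026, 2715 and 2957 CPM in control and at 3026, 2912 and 2703 CPM in Rnmt cKO. The values of the genotypes interleaved. The log2 fold change was -0.01 (SE 0.07, 95% interval -0.17 to 0.15, adjusted p = 0.916), a ratio between 0.892 and 1.11. mt-Nd1 was at 1148, 932 and 1123 CPM in control and 1249, 1008 and 1046 CPM in Rnmt cKO. Here too the groups overlapped, with a log2 fold change of 0.04 (SE 0.11, 95% interval -0.21 to 0.29, adjusted p = 0.751). For both mRNAs the sign of so small a change turned with the scaling or with the library left out.

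mt-Nd2, mt-Nd4 and mt-Nd5 of complex I and mt-Cytb had higher means in Rnmt cKO without passing the test. mt-Nd5 was at 158, 146.5 and 182.5 CPM in control and at 194, 292 and 164 CPM in Rnmt cKO, where replicate 2 was the highest of the 6. Its log2 fold change was 0.42 (SE 0.20, adjusted p = 0.104). mt-Nd4 had the same order of libraries within each group, with 97.7, 81.0 and 107 CPM in control and 116, 150 and 94.9 CPM in Rnmt cKO (log2 fold change 0.34, SE 0.17, adjusted p = 0.117). The log2 fold change was 0.21 for mt-Cytb (SE 0.11, adjusted p = 0.133) and 0.19 for mt-Nd2 (SE 0.11, adjusted p = 0.172). The intervals of these 4 reached from -0.06 to 0.87, which takes in rises of up to 1.83-fold. In each of them Rnmt cKO replicate 3 was the lowest library of its group. Without that library mt-Nd2, mt-Nd4, mt-Nd5 and mt-Cytb passed the test, with log2 fold changes of 0.31, 0.50, 0.59 and 0.33, and 5 of 7 mRNAs were called. Without Rnmt cKO replicate 2 the log2 fold change of mt-Nd5 was 0.16 and that of mt-Nd4 0.17, and without control replicate 2 that of mt-Nd2 was 0.11 and that of mt-Cytb 0.14, and none of these passed. Markers of B cells ran through the 6 libraries in the same order as mt-Nd5, but not as mt-Nd2, mt-Nd4 or mt-Cytb. The sum of the B cell markers in total RNA was 9.85, 6.18 and 35.1 CPM in control and 90.8, 110.5 and 20.1 CPM in Rnmt cKO. Replicate 3 was the lowest of the Rnmt cKO group there too, but lay above control replicate 1. In mt-Nd2 (142 and 150 CPM), mt-Nd4 (94.9 and 97.7 CPM) and mt-Cytb (418 and 447 CPM) it lay below control replicate 1. The part of B cells in these values was not tested. The cells had been isolated with a magnetic kit for naive CD4 T cells, a selection that should leave out B cells. DESeq2 called mt-Nd4 (0.35, adjusted p = 0.0483) and mt-Nd5 (0.43, adjusted p = 0.0279) with all libraries in.

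mt-Nd3 was the exception that passed. It was at 13.2, 14.2 and 6.40 CPM in control (249, 269 and 119 reads) and at 4.81, 4.38 and 5.82 CPM in Rnmt cKO (71, 85 and 135 reads). The groups did not overlap, but the lowest control lay close to the highest Rnmt cKO library. The log2 fold change was -1.16 (SE 0.29, adjusted p = 0.00994), and it stayed below the threshold with each library left out, between -1.45 and -0.97. Where in the gene these reads aligned is not given by the counts. Reads aligned in several places made up 28.7 to 30.1% of all reads in control total RNA and 24.3 to 27.3% in Rnmt cKO. Their part in the value of mt-Nd3, most of whose windows are shared, was not tested.

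**Figure D2:**
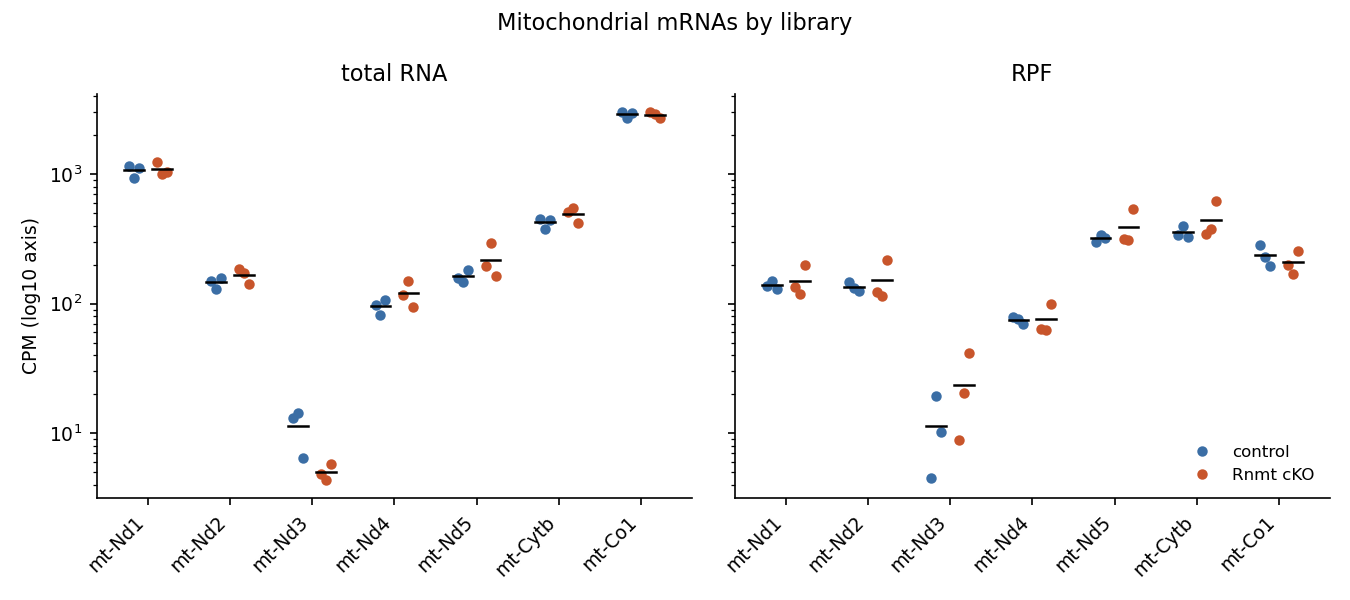
CPM (log10 axis) of the 7 mRNAs with reads, in total RNA (left) and RPF (right). Each point is a library, blue for control and orange for Rnmt cKO, with 3 libraries a group, and the black lines are group means. The genotypes interleave for mt-Co1 and mt-Nd1, mt-Nd3 is separated in total RNA, and the highest Rnmt cKO point in RPF is replicate 3 for each mRNA.

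In RPF no change passed the test. 0 of 7 mRNAs were called by edgeR or DESeq2, whereas 29.8% of 11428 genes changed, 15.7% down and 14.1% up. An unadjusted p under 0.05 was found for 0 of 7, against 41.8% of all genes. The groups did not overlap for 0 of 7, against 46.5% of all genes. The log2 fold change was 0.32 for mt-Cytb (SE 0.20, adjusted p = 0.259), 0.28 for mt-Nd5 (SE 0.19, adjusted p = 0.310) and -0.19 for mt-Co1 (SE 0.17, adjusted p = 0.434). It was 0.16 for mt-Nd2, 0.11 for mt-Nd1 and -0.01 for mt-Nd4, with 95% intervals that reached from -0.40 to 0.66.

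The median SE over the 7 mRNAs was 0.19 in RPF and 0.11 in total RNA. Over all genes it was 0.12 in RPF and 0.10 in total RNA. mt-Cytb was at 337, 397 and 329 CPM in control and at 342, 376 and 616 CPM in Rnmt cKO. mt-Nd5 was at 300.3, 339.5 and 318.5 CPM in control and at 315, 313 and 538 CPM in Rnmt cKO. Replicates 1 and 2 of Rnmt cKO lay in the control range for both, and replicate 3 stood above it. Without replicate 3 the log2 fold change was 0.02 for mt-Cytb, -0.02 for mt-Nd5, -0.12 for mt-Nd1, -0.17 for mt-Nd2, -0.24 for mt-Nd4 and -0.36 for mt-Co1, and again 0 of 7 passed. mt-Nd3 was at 4.50, 19.3 and 10.3 CPM in control and at 8.87, 20.6 and 41.7 CPM in Rnmt cKO. These values overlapped over a broad range (log2 fold change 1.05, SE 0.61, adjusted p = 0.225).

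Translation efficiency (TE) was tested as the change in RPF relative to that in total RNA. 0 of 7 mRNAs passed in edgeR and in DESeq2, whereas 9.77% of 10668 genes changed, 6.55% down and 3.22% up. An unadjusted p under 0.05 was found for 1 of 7, against 24.6% of all genes. The log2 change in TE lay between -0.36 and 0.11 for the 6 mRNAs other than mt-Nd3. The narrowest interval was that of mt-Co1, -0.63 to 0.27. For mt-Nd3 it was 2.20 (SE 0.75, adjusted p = 0.0847), and with a term for each numbered pair of libraries, it was 2.18 (adjusted p = 0.0317) and past the threshold. Without Rnmt cKO replicate 3 the calls were others, with mt-Nd2 at -0.48 (adjusted p = 0.0411) and mt-Nd4 at -0.74 (adjusted p = 0.0218), and mt-Nd3 at 1.75 (adjusted p = 0.154).

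**Figure D3:**
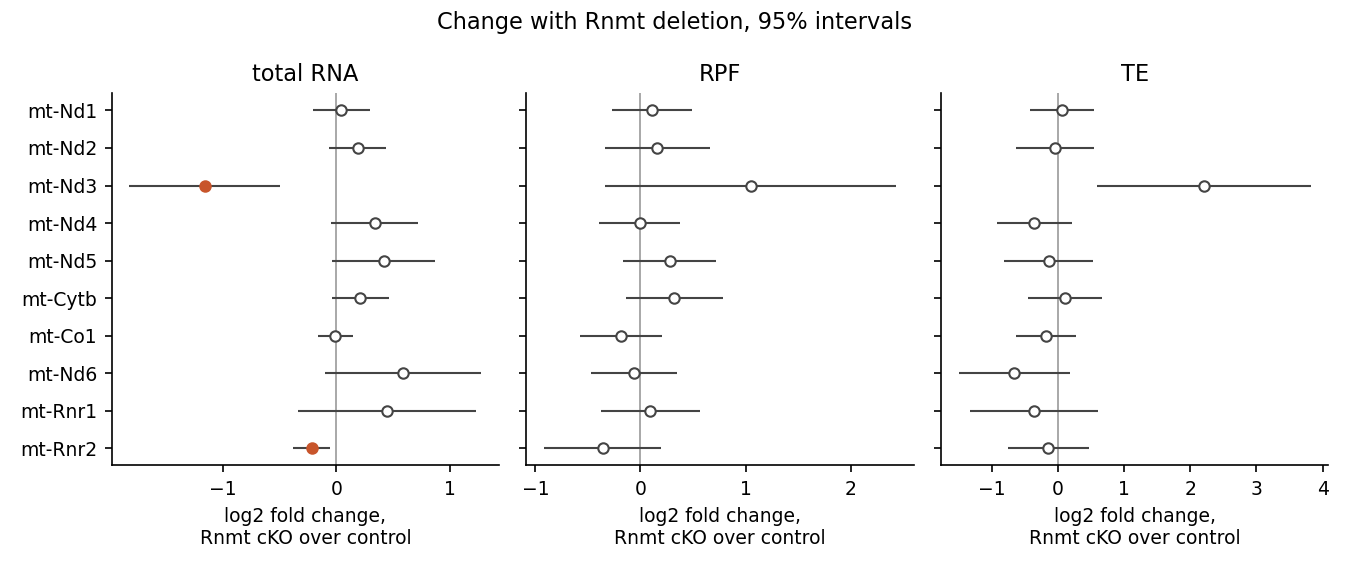
Log2 fold change of Rnmt cKO over control in total RNA, RPF and TE for the 7 mRNAs with reads, mt-Nd6 and the rRNAs. Points are the estimates, lines 95% intervals of the edgeR fit, and orange points have an adjusted p under 0.05. mt-Nd3 at -1.16 and mt-Rnr2 at -0.22 are the points past the threshold in total RNA, and there is none in RPF or TE.

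Other RNAs of the mitochondrial genome were followed alongside. The mRNA mt-Nd6, the only one encoded on the other strand, was at 19.9, 20.8 and 34.4 CPM in control total RNA and at 54.5, 33.5 and 26.0 CPM in Rnmt cKO (log2 fold change 0.59, SE 0.30, adjusted p = 0.128). With a library left out its log2 fold change was 0.26 to 0.89, and it passed without control replicate 3 (adjusted p = 0.0404) or Rnmt cKO replicate 3 (adjusted p = 0.0361). mt-Nd4l had 0 reads in every library, but 98.8% of its 50-base windows occurred in another transcript, so this count sets no limit on its level. The rRNA of the large mitochondrial ribosomal subunit, mt-Rnr2, fell by 0.22 on the log2 scale in total RNA (SE 0.07, adjusted p = 0.0291). That call was lost with any of 5 of the 6 libraries left out, where the adjusted p was 0.0604 to 0.177. The rRNA of the small subunit, mt-Rnr1, had a log2 fold change of 0.45 (SE 0.34, adjusted p = 0.295), with 46500 CPM in Rnmt cKO replicate 1 and 17500 to 28610 CPM in the other 5 libraries. Both rRNAs together made up 22.2 ± 1.34% of gene counts in control total RNA and 20.6 ± 2.14% in Rnmt cKO (SD, n = 3), so they weigh on library sizes. The paper describes this cytoplasmic RNA as depleted of ribosomes, and rRNA reads were removed before alignment. The rRNA values are thus of reads that remained after these steps, whose part in the differences between libraries was not tested. With scaling that leaves out the mitochondrial genome, all log2 fold changes of the 7 mRNAs in total RNA moved by about 0.02, and the call of mt-Nd3 stayed.

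The ratio of RPF to total RNA reads was lower for mt-Co1 and mt-Nd1 than for the other 5 mRNAs in each pair of libraries. It was taken in each numbered pair of libraries, on the log2 scale, with the median gene at 0. For mt-Co1 it was -3.58, -3.73 and -4.11 in control and -4.12, -4.28 and -3.58 in Rnmt cKO, and in control 44 of 10668 genes were lower. For mt-Nd1 it was -3.23, -2.81 and -3.29 in control and -3.40, -3.26 and -2.59 in Rnmt cKO. Of the 7 mRNAs with reads, the 2 most abundant in total RNA had the lowest ratios, and total RNA is the denominator of the ratio. For both, the genotypes overlapped.

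The remaining mRNAs were nearer to the median gene. The mean of the control pairs was -0.51 ± 0.27 for mt-Nd4 (SD, n = 3), -0.43 ± 0.29 for mt-Cytb, -0.30 ± 0.20 for mt-Nd2 and 0.81 ± 0.22 for mt-Nd5. mt-Nd3 was at -1.63, 0.26 and 0.46 in control and at 0.63, 1.93 and 2.56 in Rnmt cKO, which did not overlap, and the test of this difference is the TE value above. The groups were separated for 1 of 7 mRNAs, against 31.3% of 10668 genes. The rRNAs, which are no substrate of a ribosome, were at -1.64 ± 0.47 for mt-Rnr1 and -3.15 ± 0.53 for mt-Rnr2 in control. The control mean of mt-Nd1, -3.11 ± 0.27, was close to that of mt-Rnr2 and below that of mt-Rnr1, and that of mt-Co1 was -3.81 ± 0.27. The removal of rRNA bears on the ratios of the rRNAs, which also differed from each other. They therefore set no baseline for reads without a ribosome. Of the windows of mt-Co1 48.9% were unique at 50 bases and 35.2% at 30, so short reads can be placed in less of this gene than longer ones. Taken per unique 30-base window for RPF and per unique 50-base window for total RNA, an alternative chosen after the data were seen, its control mean was -3.33 and that of mt-Rnr2 -3.12, and their pairs overlapped. That of mt-Nd1 stayed at -3.11. The read lengths in the libraries are not given by the counts. With the counts of both strands the control means were -2.85 for mt-Nd1 and -3.50 for mt-Co1. Whether an RPF read of these mRNAs was protected by a mitochondrial ribosome was not tested.

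**Figure D4:**
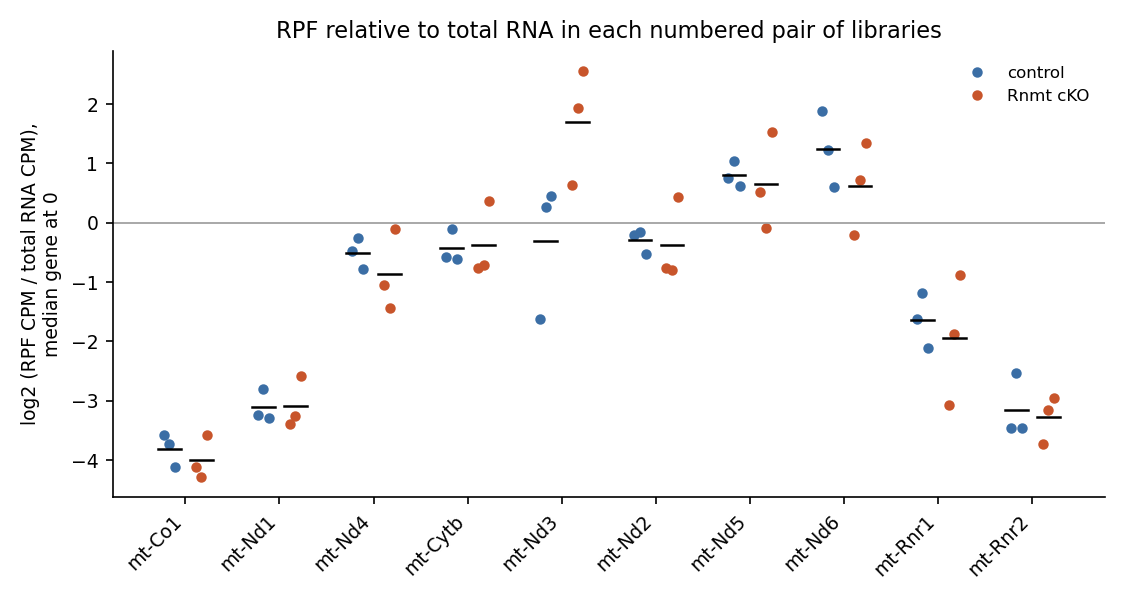
Log2 ratio of RPF CPM to total RNA CPM in each numbered pair of libraries, with the median of 10668 genes set to 0. Points are pairs, blue for control and orange for Rnmt cKO (3 each), and black lines are means. mt-Co1 and mt-Nd1 lie near -4 and -3 with mt-Rnr2, the other mRNAs are nearer to 0, and the genotypes are separated for mt-Nd3 alone.

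Reads on the opposite strand were common over some of these genes, whose template is transcribed on both strands. In total RNA the opposite strand held 29.3, 31.1 and 35.0% of the reads over mt-Nd5 in control and 38.9, 23.8 and 29.5% in Rnmt cKO. The end of mt-Nd5 (chrM:11742-13565) overlaps mt-Nd6 (chrM:13552-14070), which lies on that strand, and the part of mt-Nd6 in this share was not tested. The opposite strand held 19.0 to 22.1% of total RNA reads over mt-Nd4, 9.84 to 11.6% over mt-Cytb and 1.80 to 2.28% over mt-Co1 in control. It held 10.3 to 12.5% over mt-Nd2, 2.32 to 3.10% over mt-Nd1 and 0 to 1.65% over mt-Nd3 in control. Over all nuclear protein-coding genes it held 1.95 to 2.18% in the 6 libraries.

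In RPF the share on the opposite strand was higher in each Rnmt cKO library than in any control library for 5 of the 6 mRNAs with such reads. The same separation was found for 10.8% of the 1969 genes tested on that strand. In total RNA the shares did not overlap for 1 of 6 mRNAs, against 34.3% of 2213 genes. In RPF the share over mt-Nd1 was 15.5, 19.9 and 20.0% in control and 26.2, 29.1 and 28.9% in Rnmt cKO. Over mt-Nd4 it was 18.8, 26.6 and 24.1% in control and 34.4, 33.9 and 32.6% in Rnmt cKO, and over mt-Cytb 4.66, 5.74 and 6.27% against 8.03, 7.47 and 7.89%. Over mt-Co1 the groups overlapped (12.6 to 25.6% against 22.3 to 31.3%). Taken over the 10 mRNAs the share was 15.2, 19.7 and 19.4% in control and 22.9, 24.2 and 23.4% in Rnmt cKO. In total RNA it was 4.57 to 5.44% in control and 4.75 to 5.42% in Rnmt cKO, which overlapped. With 3 libraries against 3, an exact permutation test cannot go below p = 0.1.

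Tested as levels across all genes with opposite-strand reads, a test chosen after these values were seen, none of the 6 mRNAs passed in RPF. The log2 fold change of opposite-strand reads in RPF was 0.90 for mt-Nd1 (SE 0.25, adjusted p = 0.119), 0.84 for mt-Cytb (SE 0.27, adjusted p = 0.153), 0.74 for mt-Nd4 (SE 0.22, adjusted p = 0.137) and 0.63 for mt-Nd5 (SE 0.20, adjusted p = 0.163). 4 of 6 had an unadjusted p under 0.05, against 20.9% of all genes tested this way, and the groups did not overlap for 5 of 6. Of 1969 genes tested this way 3.0% passed and for 27.9% the groups did not overlap. The median log2 fold change was 0.73 over the 6 mRNAs and 0.19 over all genes. In total RNA 1 of 6 passed, mt-Co1 with a log2 fold change of -0.29 in its opposite-strand level (SE 0.10, adjusted p = 0.0333), and those levels did not overlap. Of 2213 genes tested there 33.7% passed, and 46.1% had groups that did not overlap. Over nuclear protein-coding genes the opposite strand held 1.21 to 1.37% in control RPF and 1.35 to 2.13% in Rnmt cKO RPF, with the highest value again in replicate 3. The part of library quality in these values was not tested.

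**Figure D5:**
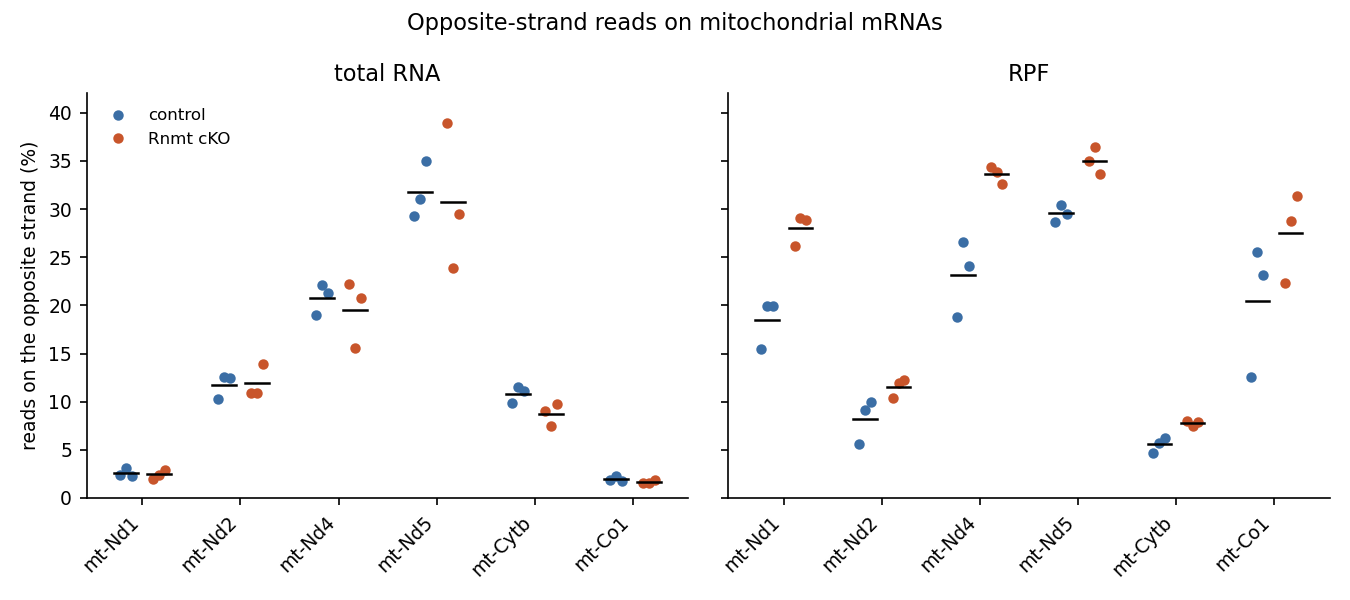
Percent of reads on the opposite strand over 6 mRNAs, in total RNA (left) and RPF (right). The 6 are the mRNAs with reads other than mt-Nd3, which had 0 to 2 opposite-strand reads in a library. Points are libraries, blue for control and orange for Rnmt cKO (3 each), and black lines are means. In RPF the orange points lie above the blue ones for 5 of 6 mRNAs, with overlap for mt-Co1, and in total RNA the groups overlap for 5 of 6, the exception being mt-Cytb, where orange is lower.

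Nuclear subunits of the same complexes come from capped mRNAs. Of 36 nuclear subunits of complex I, 21 fell and 0 rose, against the 28.0% of all genes that fell. Their median log2 fold change was -0.25. Ndufa6, an accessory subunit, had the largest fall (-0.93, SE 0.08, adjusted p = 6.66e-05), followed by Ndufv3 (-0.82, SE 0.12, adjusted p = 0.000860). Of 11 subunits of complex IV 6 fell (3 to 7 with a library left out), with Cox7b at -0.34 and Cox5b at -0.31. Of 15 subunits of complex V 6 fell, among them Atp5g2 (-0.80), part of the membrane ring, with means of 2.13 and 1.19 CPM, and Atp5c1 (-0.53), the central stalk. Of 9 subunits of complex III 3 fell, among them Uqcrh (-0.42) and Uqcr11 (-0.25), with a median of 0.03. The falls in complex III numbered 1 to 3 with a library left out and 1 to 2 in the alternatives that kept all libraries. In complex II, which has no mitochondrially encoded subunit, 3 of 4 fell (Sdhb -1.08, Sdhc -0.58). None of these subunits rose in total RNA, although 1 did with plain library sizes and up to 2 with a library left out. The calls of Atp5g2, Cox5b and Uqcr11 were lost with each of 4, 4 and 5 libraries left out in turn, at adjusted p of up to 0.0868, 0.0808 and 0.139. That of Atp5g2 was also lost with DESeq2, and that of Uqcr11 with DESeq2, both other scalings and the replicate block. Across the 5 complexes 39 subunits fell in total RNA and 36 did not pass. In RPF 13 of the 75 subunits fell and 6 rose, against 15.7% and 14.1% of all genes. In TE 0 fell and 9 rose, against 6.55% and 3.22% of all genes, and the 9 became 2 to 12 with a library left out.

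As a share of protein-coding reads in total RNA, the 71 nuclear subunits of complexes I, III, IV and V took 1.54, 1.52 and 1.42% in control and 1.31, 1.22 and 1.40% in Rnmt cKO. The groups did not overlap, with the closest libraries at 1.419 and 1.399%. By level in total RNA the groups did not overlap for 62.3% of all genes, so this separation is a description only. In RPF the same subunits took 2.06 to 2.13% in control and 2.135 to 2.165% in Rnmt cKO, with the closest libraries at 2.130 and 2.135%. With the counts of both strands the highest control and the lowest Rnmt cKO library were both at 2.113%, so the groups were not clearly apart. Whether the nuclear and mitochondrial subunits differ in their change was not tested.

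Of 10 genes of mitochondrial transcription 2 fell and 2 rose in total RNA and 6 did not pass, against 28.0% and 26.3% of all genes, with a median log2 fold change of 0.05. Tfb1m, which methylates mitochondrial rRNA, and Mterf2 fell (-0.64 and -0.59), whereas Mterf1a and the elongation factor Tefm rose (0.57 and 0.52). The call of Mterf1a was lost without control replicate 1, control replicate 3 or Rnmt cKO replicate 2, at adjusted p of up to 0.0791. The polymerase Polrmt (-0.03, SE 0.11, adjusted p = 0.801) and Tfam, which packages mitochondrial DNA and starts its transcription (-0.12, SE 0.06, adjusted p = 0.114), did not pass. Of 13 genes of mitochondrial DNA replication 5 fell and 3 rose in total RNA, against the same 28.0% and 26.3% of all genes. The falls were led by the primase Primpol (-1.31) and by Dguok, which makes purine nucleotides for mitochondrial DNA (-1.03), and the rises by the nuclease Mgme1 (0.46) and the ligase Lig3 (0.38).

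Of 21 genes of mitochondrial RNA processing and stability 9 rose and 3 fell in total RNA, against 26.3% and 28.0% of all genes. Trmt10c, a subunit of the RNase P that frees the tRNAs, had the largest rise (0.95, SE 0.05, adjusted p = 1.27e-05), followed by Pde12, which removes poly(A) tails in mitochondria (0.80, SE 0.06, adjusted p = 3.02e-05). Slirp, the partner of Lrpprc in holding mitochondrial mRNAs, fell (-0.45, SE 0.06, adjusted p = 0.000595), as did Rexo2, which degrades short RNAs (-0.44, SE 0.08, adjusted p = 0.00220). In RPF Trmt10c rose (0.43, adjusted p = 0.00357) and Rexo2 fell (-0.19, adjusted p = 0.0368), whereas Pde12 was at 0.09 (adjusted p = 0.290) and Slirp at 0.00 (adjusted p = 0.996). Their TE changed against the direction of total RNA for Pde12 (-0.71, adjusted p = 0.000137), Trmt10c (-0.52, adjusted p = 0.00155) and Slirp (0.44, adjusted p = 0.00524). Over the list 1 of 21 fell and 5 rose in RPF, against 15.7% and 14.1% of all genes. Rexo2 was the only fall in RPF, and its call was lost in 9 alternatives, where the falls numbered 0. In the other 3 alternatives the falls stayed at 1. They ranged from 0 to 1 both with a library left out and in the alternatives that kept all libraries. With a library left out the rises in RPF numbered 3 to 5. In TE 3 fell and 2 rose, against 6.55% and 3.22% of all genes. The rises in TE numbered 1 to 2, both with a library left out and in the alternatives that kept all libraries. Lrpprc itself was at 0.03 in total RNA (SE 0.06, adjusted p = 0.721). The median of the list in total RNA was 0.06.

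Of 14 factors of mitochondrial translation 6 fell and 3 rose in total RNA, against 28.0% and 26.3% of all genes, with a median log2 fold change of -0.09. Mrpl58, which frees stalled mitochondrial ribosomes, fell most (-0.73), followed by the initiation factor Mtif2 (-0.69). The release factor Mtrf1 (0.65) and the elongation factor Gfm1 (0.36) rose. The elongation factor Tufm was at 0.08 (SE 0.13, adjusted p = 0.645). In RPF 1 of the 14 fell and 2 rose, against 15.7% and 14.1% of all genes. These falls numbered 1 to 3 with a library left out, and also in the alternatives that kept all libraries.

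By the likeness of levels across libraries, the genes outside the mitochondrial genome nearest to the mean log2 CPM of the 7 mRNAs were Xpot (Pearson r = 0.961), Srsf10 (0.954) and Rin3 (0.948) over the 6 total RNA libraries. Over the 6 RPF libraries they were Saraf (0.994), Foxn3 (0.983) and Acer3 (0.982). With 6 libraries and 7262 and 7371 genes searched, such values are a description. In RPF Rnmt cKO replicate 3 had the highest level of its group for each of the 7 mRNAs. The part of that library, and of library depth, in these correlations was not tested.

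Markers of the cells were read in every library. By reads summed over all 12 libraries the most abundant of each list were Cd28 (CD4 T cells), Cd8b1 (CD8 T cells), Ms4a1 (B cells), Klrk1 (NK cells) and Mpeg1 (myeloid cells). All 10 markers of CD4 T cells had reads in every library, and summed to 4343 to 4654 CPM in control total RNA and to 3269 to 3805 CPM in Rnmt cKO. The 6 B cell markers summed to 6.18 to 35.1 CPM in control and 20.1 to 110.5 CPM in Rnmt cKO, and none was at 0 in any library. The 2 CD8 markers, Cd8a and Cd8b1, summed to 21.3 to 41.6 and 9.83 to 26.4 CPM. The 5 NK cell markers summed to 0.953 to 2.01 CPM in control total RNA and 3.32 to 4.74 CPM in Rnmt cKO, with 1 or 2 of them at 0 in each control library. The 6 myeloid markers summed to 0.265 to 1.35 and 1.94 to 4.67 CPM. Both lists were higher in each Rnmt cKO library than in any control library, with Lyz2, Csf1r, Itgam, Adgre1 and Cd14 at 17 reads or fewer over all 12 libraries. In RPF the B cell markers summed to 9.02 to 44.3 CPM in control and 25.3 to 157 CPM in Rnmt cKO, where replicate 3, the highest in the mitochondrial mRNAs, was the lowest. The part of other cells in the values of the mitochondrial mRNAs was not tested.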

How the data were processed

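Counts were analysed from 6 total cytoplasmic RNA and 6 RPF libraries. Libraries were made with the Illumina TruSeq Ribo Profile kit. According to the methods, the authors used read 2 (read 1 had failed), trimmed adapters with cutadapt, removed rRNA and tRNA reads with Bowtie and aligned the rest to mm10 (GRCm38) with STAR 2.5.2b. The authors deposited whole-number counts of uniquely aligned reads per gene, not normalized, for both strands and for each. Reads on the sense strand of each gene were taken. Their table of normalized values, fold changes and p-values was not used. Symbols, positions and transcripts came from GENCODE vM21, where 49326 of 49585 identifiers matched.

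A gene was tested where 3 or more of the 6 libraries of a kind exceeded 1 CPM. Normalization was by TMM, and genotypes were compared by the quasi-likelihood test (edgeR 4.0.16, R 4.3.3). For TE a genotype-by-kind interaction was fitted to the 12 libraries. P-values were adjusted by Benjamini-Hochberg over all genes tested, with a threshold of 0.05. The 95% intervals and SEs come from that test. Ratios of RPF to total RNA used log2(CPM + 0.5). Alternatives are given in the closing section, including DESeq2 1.42.0. Same-numbered total RNA and RPF libraries of a genotype deviated together (r = 0.110 to 0.366 in 6 pairs), so the numbers pair them. The TE test was fitted without a term for the pairs, and the fit with that term is given where it changes a call. Figures were drawn with matplotlib 3.10.9. The SEs hold both counting error and variation among libraries. Duplicate reads were not separated.

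The mRNAs and the gene lists were chosen with earlier results of these data known. The genes named are these mRNAs, Rnmt, the other mitochondrial mRNAs and rRNAs, the 2 largest rises and the 2 largest falls in total RNA of each list past the threshold, Polrmt, Tfam, Lrpprc, Slirp and Tufm, and the 3 genes most alike in each kind (average log2 CPM 4 or more). Protein sequences were not used here.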

Additional observations from a re-analysis of the deposited data

Results flagged for a closer look

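The share of reads on the opposite strand was outside the comparison of levels and was higher in Rnmt cKO than in control RPF libraries. Over the 10 mRNAs it was 23.5 ± 0.65% in Rnmt cKO and 18.1 ± 2.53% in control (SD, n = 3), and each Rnmt cKO library was above each control library. By gene the shares did not overlap for 5 of 6 mRNAs and overlapped for mt-Co1, and 10.8% of 1969 genes separated this way. With 3 libraries a group, the two-sided exact permutation p cannot be smaller than 0.1. The same separation held for both rRNAs. It was 0.199, 0.374 and 0.316% in control RPF and 0.485, 0.4999 and 0.659% in Rnmt cKO RPF for mt-Rnr1. For mt-Rnr2 it was 0.116, 0.134 and 0.160% in control RPF and 0.317, 0.326 and 0.353% in Rnmt cKO RPF. For mt-Nd6 the groups overlapped, at 30.4, 53.0 and 44.5% in control RPF and 47.4, 43.3 and 54.8% in Rnmt cKO RPF.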

How the results depend on the processing

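The fall of mt-Nd3 in total RNA passed under all 12 alternatives (adjusted p 2.71e-12 to 0.0385). Of the 252 values of the 7 mRNAs over all alternatives, 209 kept direction and side of the threshold, 14 newly passed, 29 turned sign and 0 lost a call. The number of these mRNAs changed in total RNA was 1, and 3 with DESeq2 and with no filter (mt-Nd3, mt-Nd4 and mt-Nd5), and 1 to 5 with a library left out. In RPF it was 0, and 3 with no filter (mt-Nd3, mt-Nd5 and mt-Cytb). In TE it was 0, and 1 with the replicate block, and 0 to 2 with a library left out. The cause was not tested. The sign turned for mt-Co1 in total RNA with plain library sizes (0.025), scaling without the mitochondrial genome (0.010) and DESeq2 (0.002), and for Polrmt with plain library sizes (0.00). In RPF mt-Nd4 turned with plain library sizes (0.011), DESeq2 (0.004) and counts of both strands (0.196), and mt-Nd6 with both strands (0.285). In TE mt-Nd2 (0.016) and mt-Nd5 (0.041) turned with both strands. With a library left out, values in total RNA ranged from -0.049 to 0.121 for mt-Nd1, -0.059 to 0.045 for mt-Co1, -0.037 to 0.721 for mt-Rnr1, -0.008 to 0.060 for Lrpprc, -0.117 to 0.046 for Polrmt and -0.044 to 0.151 for Tufm. In RPF they ranged from -0.124 to 0.257 for mt-Nd1, -0.173 to 0.336 for mt-Nd2, -0.244 to 0.116 for mt-Nd4, -0.021 to 0.417 for mt-Nd5, -0.184 to 0.148 for mt-Nd6 and -0.169 to 0.256 for mt-Rnr1. In TE they ranged from -0.214 to 0.225 for mt-Nd1, -0.481 to 0.161 for mt-Nd2, -0.614 to 0.257 for mt-Nd5, -0.304 to 0.287 for mt-Cytb, -0.890 to 0.293 for mt-Rnr1 and -0.334 to 0.205 for mt-Rnr2. Nuclear subunits of complexes I to V that rose in total RNA numbered 0, and 1 with plain library sizes and with no filter, and 0 to 2 with a library left out. Those that rose in RPF numbered 6, and 3 to 6 with a library left out. In TE 0 fell, and 0 to 1 with a library left out, and 9 rose, with 5 under plain library sizes, 3 with no filter and 2 to 12 with a library left out. All genes changed in TE numbered 1042, and 533 to 1185 with a library left out. Between genotypes, same-numbered libraries did not deviate together (r = -0.225, -0.170 and -0.474 in total RNA, 0.260, -0.131 and 0.112 in RPF), so they share only a number, and the block left the counts of these mRNAs at 1 in total RNA and 0 in RPF. A single replicate left out leaves 2 libraries in a group. RPF of Rnmt cKO replicate 3 was the shallowest library, and without it the SE of mt-Nd5 in RPF went from 0.193 to 0.076.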

Other observations

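The tRNAs of the mitochondrial genome took 0.142, 0.0815 and 0.130% of gene counts in control total RNA and 0.109, 0.130 and 0.122% in Rnmt cKO. In RPF they took 0.179, 0.193 and 0.166% in control and 0.0864, 0.129 and 0.208% in Rnmt cKO. The groups overlapped in both, and the removal of tRNA reads before alignment bears on these levels.

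mt-Nd6 and mt-Rnr1 had a similar order of total RNA libraries, a likeness seen in the data and not tested. The orders were not the same. Control replicate 2 lay below Rnmt cKO replicate 3 in mt-Nd6 (20.8 and 26.0 CPM) and above it in mt-Rnr1 (18360 and 17690 CPM). Control replicate 3 (34.4 and 28610 CPM) and Rnmt cKO replicate 1 (54.5 and 46500 CPM) were the highest of their group in both RNAs.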
